A study of Mus musculus with 8 samples.

Results

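The genes described here encode the enzymes that turn arachidonic acid into hydroxy fatty acids, leukotrienes and prostaglandins. They are the 10 rows of the count table with the symbols Alox15, Alox5, Alox5ap, Alox12, Lta4h, Ltc4s, Ptgs1, Ptgs2, Hpgds and Hpgd, out of 28239 rows, and they were chosen by symbol. Naive CD4+ T cells were isolated from spleen by immunomagnetic negative selection and cultured with IL-2, TGF-β and beads carrying antibodies to CD3 and CD28, and the RNA was taken on day 2 of differentiation to regulatory T cells (Tregs). The labels give a C57BL/6 background for both groups. The study describes its mice as female and male and aged 10 to 12 weeks, without giving the sex behind each library. The female marker Xist had 172 to 554 reads per library. Of the male markers, Ddx3y had 170 to 406, Uty 4 to 18, Kdm5d 0 to 3 and Eif2s3y 0 to 1, so the sex was not settled. The 4 libraries of the WT group came from mice of Charles River, and the 4 libraries of the other group, labelled Alox15-/- (KO), from mice of The Jackson Laboratory described as deficient in Alox15. Supplier and genotype therefore cannot be told apart, and no reference analysed here compares the same colony with and without the gene. The study's legend counts mice for the Alox15-/- group, but neither it nor the labels tie each library to a single mouse. The p-values can therefore at most measure the spread between these libraries.

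Gene counts came from MACE-seq, which sequences each transcript near its 3′ end. The total per library was between 3723151 and 6952596 reads in the libraries labelled Alox15-/- and between 4810125 and 9538962 in those labelled WT. Levels are given as CPM, the counts relative to the library total on a common scale, after scaling by the trimmed mean of M values (TMM). Because a 3′ read stands for a transcript whatever its length, and capture differs between genes, levels were compared between libraries and not between genes. The labelled cell type was checked first: the 8 T cell markers summed to between 2054 and 2373 CPM in the libraries labelled Alox15-/- and to between 2261 and 2632 CPM in those labelled WT, and the 7 Treg markers to between 2175 and 2286 CPM and between 2198 and 2351 CPM. Both sums overlapped between the groups. Il2ra alone was at 673.3 to 848.1 CPM in the libraries labelled Alox15-/- and at 759.0 to 894.2 CPM in the WT libraries. The Treg sum therefore says little about Foxp3, and its overlap is no check of Treg identity. Among their genes, Cd4 was lower in each library labelled Alox15-/- (208.6 to 295.3 CPM) than in any WT library (326.2 to 350.1 CPM), without passing the test (edgeR adjusted p = 0.357). Cd3g was higher in each library labelled Alox15-/- (151.3 to 168.8 CPM) than in any WT library (110.5 to 139.0 CPM), also without passing (edgeR adjusted p = 0.296). Foxp3 overlapped, at 71.3 to 112.9 CPM against 92.9 to 194.4 CPM (edgeR adjusted p = 0.655). The fit without the filter on low counts gave Foxp3 an adjusted p of 0.0189 by the same test, and the limit of that fit is given below. The summed markers of mast cells and basophils, eosinophils, monocytes and macrophages, neutrophils, platelets and erythroid cells were higher in every library labelled Alox15-/- than in every WT library, and their sums are given beside the results below.

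Lipoxygenases add oxygen to polyunsaturated fatty acids. Alox15 makes hydroperoxides that are precursors of lipoxins, resolvins and related mediators, whereas Alox5, presented with its substrate by the membrane protein Alox5ap, makes leukotriene A4, which Lta4h hydrolyzes to leukotriene B4 and Ltc4s joins to glutathione to give leukotriene C4. The cyclooxygenases Ptgs1 and Ptgs2 make prostaglandin H2, Hpgds converts it to prostaglandin D2 and Hpgd breaks prostaglandins down. In blood and tissue these enzymes are best known from mast cells, basophils, eosinophils, macrophages, neutrophils and platelets, while Lta4h is expressed in most tissues.

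The promoters of 2 members whose level was higher in each library labelled Alox15-/- than in any WT library are shown because the short letters GATA, the core of the site read by GATA factors, occur in them. Each is the 250 bases before the RefSeq start of the gene (GRCm38.p6), written 5′ to 3′ on the gene's strand. Capitals mark GATA or its reverse complement TATC, and in Alox5 also GGGCGG, the core of a GC box. The Alox5 window is chr6:116461179-116461428 on the minus strand and the Ptgs1 window is chr2:36230176-36230425 on the plus strand.
Alox5: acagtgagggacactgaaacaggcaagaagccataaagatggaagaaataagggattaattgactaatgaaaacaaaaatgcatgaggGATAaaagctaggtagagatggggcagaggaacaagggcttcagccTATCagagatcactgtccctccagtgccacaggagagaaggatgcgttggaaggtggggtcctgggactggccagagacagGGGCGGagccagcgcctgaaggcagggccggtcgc
Ptgs1: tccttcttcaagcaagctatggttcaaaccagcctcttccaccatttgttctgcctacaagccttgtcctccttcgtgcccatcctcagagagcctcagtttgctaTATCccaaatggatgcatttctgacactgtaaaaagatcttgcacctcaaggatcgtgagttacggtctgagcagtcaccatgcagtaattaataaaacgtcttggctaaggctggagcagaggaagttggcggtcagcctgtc

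The Alox5 window held 2 GATA matches, which begin 162 and 116 bases before the start, and 1 GGGCGG match, which begins 35 bases before it. The Ptgs1 window held 1 GATA match, beginning 144 bases before the start. Searched the same way on both strands, the 250 bases before Ltc4s held 3 GATA matches and those before Lta4h held 1, while those before Alox12, Hpgds, Hpgd and Ptgs2 held 0. In the same table, 53.6% of 32851 promoters held GATA and 32.7% held GGGCGG, so a match is common, and the letters TGTTTAC (3.17% of promoters), TATAAA (12.4%) and TTCNNNGAA (7.02%) were found in 0 of the 8 members matched. Alox15 and Alox5ap had no matched promoter and were not searched, so the matches say nothing about the members as a set. A match is a description of these windows and not evidence of binding.

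Of the 10 members, 5 had at least 2 CPM in at least 4 libraries and were tested, namely Alox15, Alox5, Alox5ap, Lta4h and Hpgds. Of these, 3 were higher in the libraries labelled Alox15-/- (Alox15, Alox5 and Alox5ap), 0 were lower and 2 did not pass (edgeR's two-sided quasi-likelihood test, Benjamini-Hochberg adjusted p under 0.05 over 12700 genes). Over all tested genes 1.24% were called, 1.05% as higher and 0.197% as lower. The remaining 5 members, Alox12, Ltc4s, Ptgs1, Ptgs2 and Hpgd, fell under the filter and are described by their reads. Since a gene can pass this filter through 1 group alone, as Alox5ap nearly does, the count over the tested members is not a count over all members and supports nothing about them. A second fit, without the filter, gave far smaller p-values by the same test. The adjusted p of Alox15 was 2.97e-95 there against 1.08e-05, and that of Mpo, a neutrophil marker whose groups overlapped, 1.05e-19 against 0.062. Ccr3, with 39 reads in WT replicate 2 and 0 to 3 in every other library, was called (adjusted p = 0.000379). The p-values of that fit therefore do not carry the full spread between libraries and are a description only.

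**Figure D1:**
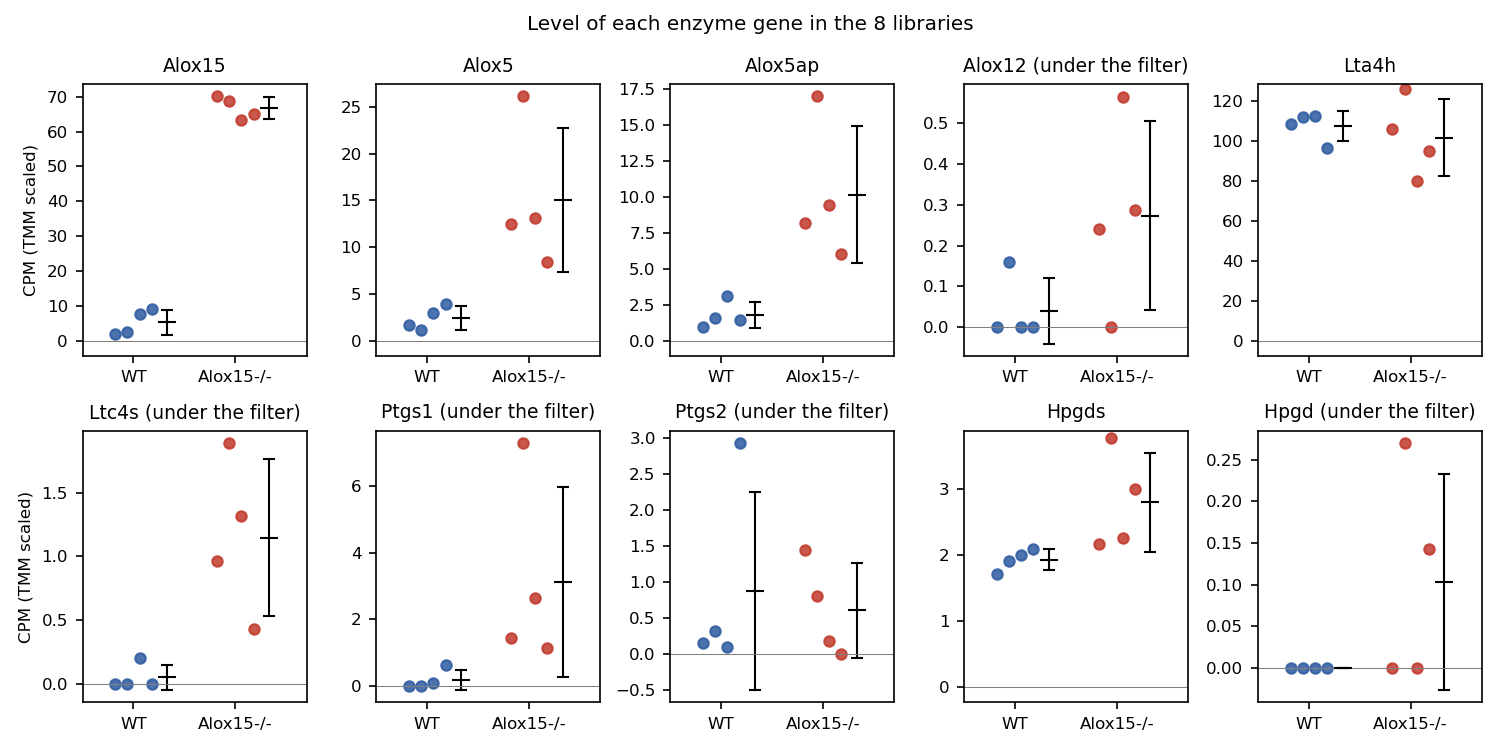
Level of each of the 10 genes in CPM (linear axes, each with its own range) in the 4 WT libraries (blue) and the 4 libraries labelled Alox15-/- (red), with the mean and SD beside the points (black). Alox15, Alox5, Alox5ap, Ptgs1, Ltc4s and Hpgds lie higher in every library labelled Alox15-/- than in every WT library, whereas Lta4h, Ptgs2, Alox12 and Hpgd overlap.

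Alox15 (ENSMUSG00000018924.6; GRCm38, chromosome 11, 70344152 to 70352031, minus strand), the gene named in the genotype, was higher and not lower in the libraries labelled Alox15-/-. Their levels were 70.1, 68.8, 63.4 and 65.0 CPM in replicates 1 to 4, and those of the WT libraries were 1.87, 2.55, 7.73 and 8.98 CPM. The lowest library labelled Alox15-/- was above the highest WT library, and WT replicates 3 and 4 were above WT replicates 1 and 2. The means were 66.8 ± 3.16 CPM (SD, n = 4) and 5.28 ± 3.59 CPM (SD, n = 4), a log2 fold change of 3.65 (SE 0.299, edgeR adjusted p = 1.08e-05), or 12.55-fold. Which exon the mutant lacks is not given in the sources used here, and reads at the 3′ end of a transcript whose deleted part lies elsewhere check neither the genotype nor the protein. For this reason the groups are named by their labels, and every direction below sets the libraries labelled Alox15-/- against the WT libraries.

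Within the libraries labelled Alox15-/-, Alox15 varied less than the other members, with a highest level 1.11 times the lowest and a coefficient of variation of 4.73%. No other gene shared at least 90% identity over at least 100 bases with the last 500 bases of its transcript. Of 7 tested genes within 150 kb of Alox15, 1 passed the threshold (Cxcl16, a chemokine, log2 fold change 1.84, edgeR adjusted p = 0.0278), and the log2 fold changes of the 7 ranged from -0.71 to 1.84. The genes whose level was most like that of Alox15 over the 8 libraries (log2 CPM with a prior count of 2) were Osbpl10 (r = 0.987), Gm14094 (r = 0.986), Fcer1a (r = 0.981), Gm8420 (r = 0.976) and AC153864.1 (r = 0.968). Such correlations over 8 libraries in 2 groups hold for any gene that differs strongly between the groups, and carry no test.

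Alox12 (chromosome 11, 70241457 to 70255353, minus strand), the platelet-type lipoxygenase, lies near Alox15 on the same strand. It had 1, 0, 3 and 2 reads in the libraries labelled Alox15-/- and 0, 1, 0 and 0 reads in those labelled WT. With 6 against 1 reads the ratio of the scaled levels was 8.16, with a 95% exact interval from 0.990 to 375.3 that covers counting error only, and the groups overlapped (two-sided exact permutation test, p = 0.143). A difference in Alox12 was thus not detectable at this depth. The last 500 bases of its transcript also matched transcripts of 93 other genes, which leaves its few reads uncertain.

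The pair that starts leukotriene synthesis moved in the same direction. Alox5 (ENSMUSG00000025701.12; chromosome 6, 116410077 to 116461178, minus strand) was at 12.5, 26.2, 13.2 and 8.44 CPM in the libraries labelled Alox15-/- and at 1.72, 1.12, 2.91 and 3.97 CPM in the WT libraries. The groups did not overlap, and replicate 2 of the libraries labelled Alox15-/- stood highest and replicate 4 lowest of its group. The means were 15.1 ± 7.69 CPM (SD, n = 4) and 2.43 ± 1.27 CPM (SD, n = 4), with a log2 fold change of 2.61 (SE 0.380, edgeR adjusted p = 0.00129).

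Alox5ap (ENSMUSG00000060063.9; chromosome 5, 149264767 to 149288153, plus strand), which the field also calls FLAP, was at 8.16, 17.0, 9.41 and 6.01 CPM in the libraries labelled Alox15-/-. In the WT libraries it was at 0.936, 1.59, 3.11 and 1.46 CPM. Replicates 2 and 4 were again the highest and the lowest of the libraries labelled Alox15-/-, and all 4 were above every WT library. The means were 10.1 ± 4.78 CPM (SD, n = 4) and 1.78 ± 0.934 CPM (SD, n = 4), with a log2 fold change of 2.38 (SE 0.382, edgeR adjusted p = 0.00298). The annotation places Gm19719 and n-R5s180 on the opposite strand within Alox5ap, and the sources used here do not say whether the counting used strand, so reads of these genes cannot be told apart.

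The genes most like Alox5 over the 8 libraries were Csf2rb2 (r = 0.987), Csf2rb (r = 0.981), Plac8 (r = 0.980), Emilin2 (r = 0.979) and Ms4a2 (r = 0.978). Those most like Alox5ap were Gpnmb (r = 0.991), Mcpt1 (r = 0.986), Spns3 (r = 0.983), Tcrg-C2 (r = 0.983) and Prss34 (r = 0.978). Ms4a2 and Prss34 belong to the list of mast cell and basophil markers used here, as does Fcer1a, which was among the genes most like Alox15.

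Of the terminal leukotriene enzymes, Lta4h was tested and Ltc4s fell under the filter, and their changes were not tested against each other. Lta4h (ENSMUSG00000015889.8; chromosome 10, 93453411 to 93484875, plus strand) was at 106.1, 126.0, 79.8 and 95.1 CPM in the libraries labelled Alox15-/- and at 108.6, 112.1, 112.4 and 96.5 CPM in those labelled WT. The groups overlapped over the whole WT range, and the means of 101.8 ± 19.45 CPM (SD, n = 4) and 107.4 ± 7.48 CPM (SD, n = 4) gave a log2 fold change of -0.08 (SE 0.128, edgeR adjusted p = 0.917). The last 500 bases of its transcript also matched Gm4854, with at least 90% identity over at least 100 bases. Between 424 and 1120 reads were counted on Lta4h per library, so counting error is small beside the spread. Its value passed 0 when replicate 3 of the libraries labelled Alox15-/- was left out, to a log2 fold change of 0.025.

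Ltc4s (chromosome 11, 50236461 to 50238616, minus strand) had 4, 7, 7 and 3 reads in the libraries labelled Alox15-/- and 0, 0, 2 and 0 reads in those labelled WT. In CPM these were 0.960, 1.89, 1.32 and 0.429 against 0, 0, 0.201 and 0, and every library labelled Alox15-/- was above every WT library (exact permutation test, two-sided, p = 0.0286, which is the smallest that 4 libraries against 4 can give). With 21 against 2 reads the ratio of the scaled levels was 14.3, with an exact 95% interval from 3.49 to 125.6 that covers counting error only. Fitted without the filter on low counts, Ltc4s had a log2 fold change of 3.58 with an adjusted p of 0.00616 by the edgeR quasi-likelihood test. The call was lost by DESeq2 (3.99, adjusted p = 0.110), without replicate 2 of the libraries labelled Alox15-/- (3.28, adjusted p = 0.091) and without replicates 2 and 3 of that group (2.90, adjusted p = 0.697). Without WT replicate 3 the WT libraries held 0 reads, and the fitted value of 5.57 then depends on the prior count. Gm26542, which overlaps Ltc4s on the opposite strand, had 87 reads in all 8 libraries together, and the counting may have divided reads between the genes.

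Both cyclooxygenases fell under the filter, and their changes were not tested against each other. Ptgs1 (ENSMUSG00000047250.13; chromosome 2, 36230426 to 36252272, plus strand) had 6, 27, 14 and 8 reads in the libraries labelled Alox15-/- and 0, 0, 1 and 3 reads in those labelled WT, or 1.44, 7.29, 2.63 and 1.14 CPM against 0, 0, 0.100 and 0.626 CPM. Every library labelled Alox15-/- was above every WT library (two-sided exact permutation test, p = 0.0286), and replicate 2 held 27 of the 55 reads of its group. The ratio of the scaled levels was 18.7, with an exact 95% interval from 6.90 to 71.05 that covers counting error only. Ptgs1 was above 2 CPM in too few libraries to be tested. In the fit without the filter, which has the limit given above, its log2 fold change was 4.11 (SE 0.639). The adjusted p was 3.28e-08 by the edgeR quasi-likelihood test, 0.011 by limma-voom and 0.001 by DESeq2. The log2 fold change moved to 3.34 without replicate 2 of the libraries labelled Alox15-/- and to 5.51 without WT replicate 4, both still called, and to 2.92 without replicates 2 and 3 of the libraries labelled Alox15-/-, where the call was lost (adjusted p = 0.135). Gm43621 overlaps it on the opposite strand.

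Ptgs2 (chromosome 1, 150100031 to 150108227, plus strand), the inducible cyclooxygenase, had 6, 3, 1 and 0 reads in the libraries labelled Alox15-/- and 1, 2, 1 and 14 reads in those labelled WT. The 14 reads of WT replicate 4 were the most of any library, and the other 7 libraries held between 0 and 6. The ratio of the scaled levels was 0.756, with an exact 95% interval from 0.312 to 1.73 (two-sided exact permutation test, p = 0.914). The log2 fold change in the fit without the filter was -0.49 (SE 0.704, edgeR adjusted p = 0.855) and turned to 1.45 without WT replicate 4. The interval covers counting error only, and with 14 of the 18 WT reads in 1 library the spread between libraries left the direction unsettled.

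Hpgds (ENSMUSG00000029919.5; chromosome 6, 65117293 to 65144908, minus strand), the hematopoietic prostaglandin D synthase, was at 2.16, 3.78, 2.26 and 3.005 CPM in the libraries labelled Alox15-/- and at 1.72, 1.91, 2.01 and 2.09 CPM in those labelled WT. The groups did not overlap, but replicate 1 of the libraries labelled Alox15-/- lay just above the highest WT library. The means were 2.80 ± 0.753 CPM (SD, n = 4) and 1.93 ± 0.160 CPM (SD, n = 4), and the log2 fold change of 0.52 (SE 0.298) did not pass the threshold (edgeR adjusted p = 0.737). Between 9 and 21 reads per library stand behind these values. Hpgd, the main enzyme of prostaglandin breakdown, had 0, 1, 0 and 1 reads in the libraries labelled Alox15-/- and 0 reads in all 4 WT libraries, which is under the 3 reads that a count of 0 allows, so no fold is given.

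Without regard to the fit, 6 of the 10 members were higher in every library labelled Alox15-/- than in every WT library, among all genes 2.14%, and 4 of the 5 tested members were, among all tested genes 2.72%, while 0 tested members were lower in every such library, among all tested genes 2.53%. In the fit without the filter 5 of the 10 members were called higher and 0 lower, where 1.06% of all genes were called higher and 1.37% in either direction. The calls added there, Ptgs1 and Ltc4s, have the limit of that fit given above. Both were lost without replicates 2 and 3 of the libraries labelled Alox15-/- (edgeR adjusted p = 0.135 and 0.697), and that of Ltc4s also by DESeq2 (adjusted p = 0.110).

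**Figure D2:**
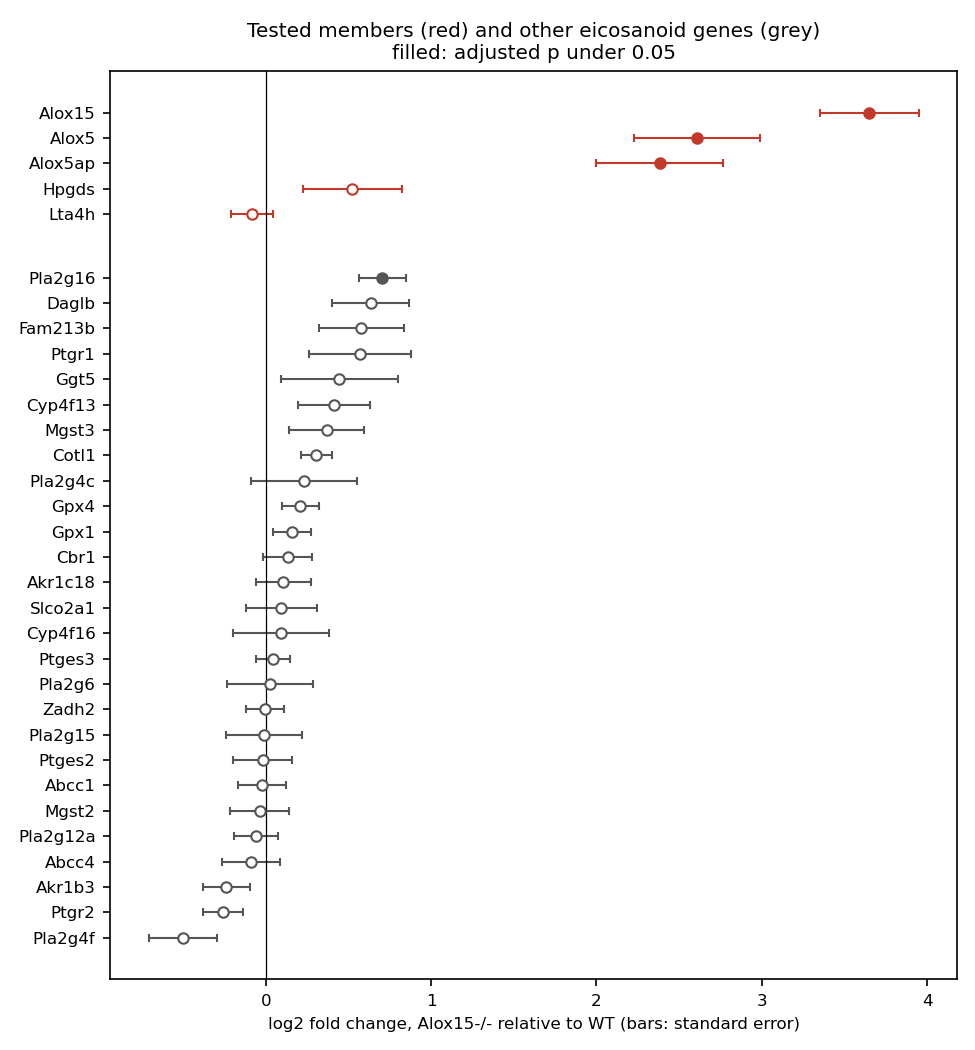
Log2 fold change with its standard error (x axis) of the 5 tested members (red) and of the 27 tested genes of the wider eicosanoid list (grey), with filled symbols for an adjusted p under 0.05. Alox15, Alox5 and Alox5ap lie at 3.65, 2.61 and 2.38, and the wider genes between -0.50 and 0.70.

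The other genes of the pathway were taken from a list of 55, of which 48 had a row and 27 were tested. Of the 27, 1 was higher in the libraries labelled Alox15-/-, 0 were lower and 26 did not pass, where 1.24% of all tested genes were called. The median log2 fold change was 0.09, beside -0.0075 over all tested genes. In sign, 17 were higher and 10 lower, beside 6122 and 6578 of all 12700 tested genes, and 6 had an unadjusted p under 0.05, beside 996 of all. The gene that rose was Pla2g16 (ENSMUSG00000060675.13; chromosome 19, 7557459 to 7588545, plus strand), a phospholipase and acyltransferase of membrane lipids. It was at 43.7, 57.2, 38.9 and 39.9 CPM in the libraries labelled Alox15-/- and at 30.7, 27.1, 27.4 and 24.2 CPM in those labelled WT, without overlap. Its log2 fold change was 0.70 (SE 0.141, edgeR adjusted p = 0.0177), and it no longer passed without replicate 1 (0.72, adjusted p = 0.055) or replicate 2 (0.58, adjusted p = 0.073) of the libraries labelled Alox15-/- or without WT replicate 2 (0.70, adjusted p = 0.070).

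Of the phospholipases A2 and related enzymes that release arachidonic acid, 7 were tested, with a median log2 fold change of 0.02 and a range from -0.50 (Pla2g4f) to 0.70 (Pla2g16). Of the remaining leukotriene genes, such as glutathione transferases, gamma-glutamyltransferases and the Alox5 partner Cotl1, 8 were tested and 0 passed, from -0.04 (Mgst2) to 0.45 (Ggt5). Of the prostanoid synthases 6 were tested and 0 passed, from -0.24 (Akr1b3) to 0.58 (Fam213b). Of the genes for transport and breakdown of prostanoids 6 were tested and 0 passed, from -0.26 (Ptgr2) to 0.57 (Ptgr1). The 3 other lipoxygenases with a row, Alox8, Alox12e and Aloxe3, all fell under the filter. In the fit without the filter, 3 genes of the wider list were called by the edgeR quasi-likelihood test, namely Pla2g16 and the leukotriene B4 hydroxylase gene Cyp4f18 (log2 fold change 2.08, adjusted p = 0.0472) as higher and Pla2g4f (-0.52, adjusted p = 0.0447) as lower. Pla2g4f overlapped between the groups, at 18.5 to 31.8 CPM against 24.4 to 49.8 CPM, and did not pass with the filter (-0.50, adjusted p = 0.560). Cyp4f18 had 11, 9, 2 and 11 reads in the libraries labelled Alox15-/- and 2, 2, 2 and 4 in those labelled WT, and the groups overlapped.

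**Figure D3:**
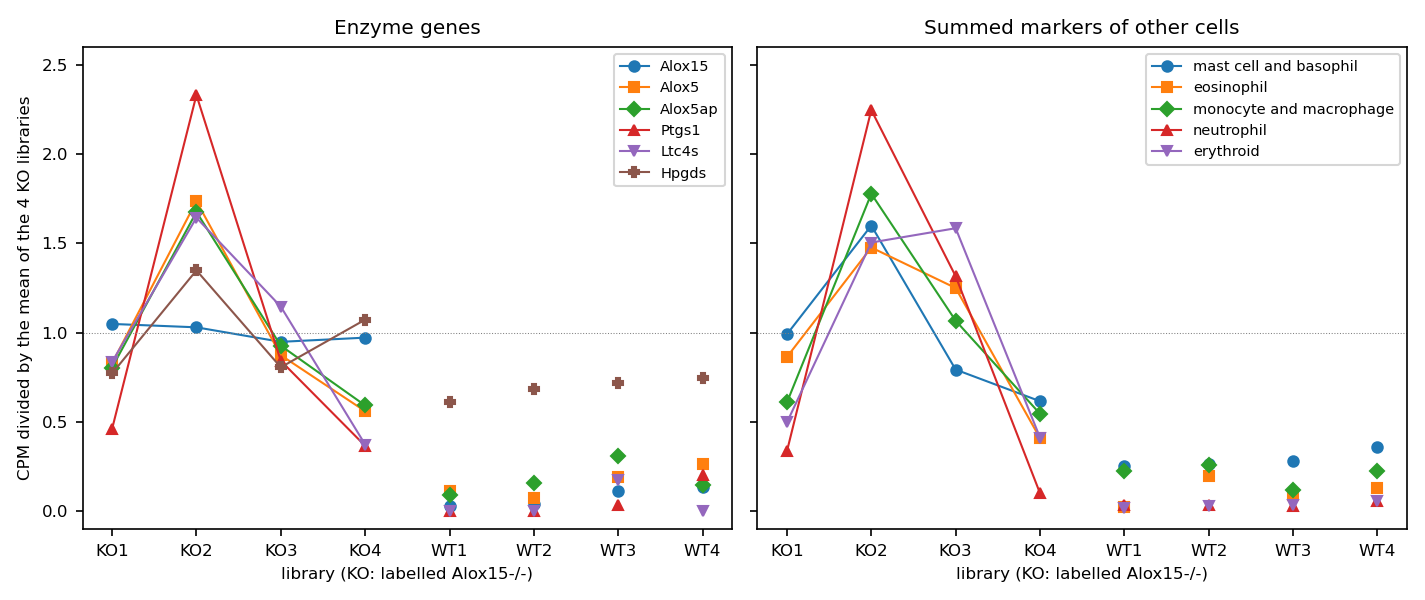
CPM divided by the mean of the 4 libraries labelled Alox15-/- (y axis, linear) for 6 members (left) and for summed markers of other cells (right) in each library (x axis; KO, labelled Alox15-/-). In the libraries labelled Alox15-/- Alox15 stays between 0.949 and 1.05, whereas Alox5, Alox5ap, Ptgs1, Ltc4s and the mast cell and basophil, eosinophil, monocyte and macrophage, and neutrophil sums are each highest in KO2 and lowest in KO4, an order that the natural killer cell and dendritic cell sums (not drawn) share.

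Summed markers of several other hematopoietic cell types were higher in the libraries labelled Alox15-/-, although single markers overlapped. The sums of B cells, dendritic cells and natural killer cells overlapped between the groups. Those of mast cells and basophils summed to 233.4, 376.7, 186.8 and 145.1 CPM in the libraries labelled Alox15-/- and to between 59.3 and 84.1 CPM in those labelled WT. Of their 12 genes, 9 were tested and 8 were higher, the exception being Kit at 25.2 to 40.1 CPM against 30.1 to 35.1 CPM. The mast cell protease gene Mcpt4 had 2, 3, 0 and 0 reads in the libraries labelled Alox15-/- and 0 in all WT libraries. The 9 eosinophil markers summed to 45.6, 78.0, 66.0 and 21.6 CPM against 1.25 to 10.4 CPM, with 2 of 2 tested genes higher. Prg3, Ear2 and Ear6 were at 0 in all WT libraries, and Ear2 also in replicate 1 of the other group. Siglecf and Il5ra overlapped, and Ccr3 had 39 reads in WT replicate 2 against 0 to 3 in every other library. The 10 monocyte and macrophage markers with a row summed to 38.7, 112.8, 67.7 and 34.6 CPM against 7.53 to 16.3 CPM, with 2 of 4 tested genes higher.

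The same held for neutrophil markers, at between 10.4 and 232.9 CPM against 3.21 to 5.85 CPM, with 2 of 3 tested genes higher. The defining marker Ly6g had 1 read in all 8 libraries together, in replicate 2 of the libraries labelled Alox15-/-. Platelet and megakaryocyte markers summed to between 3.36 and 17.0 CPM against 1.44 to 2.31 CPM, with 0 of 1 tested gene called. Erythroid markers summed to between 903.2 and 3472 CPM against 33.7 to 122.1 CPM, with 5 of 5 tested genes higher. B cell markers overlapped, at 9.98 to 12.7 CPM against 11.5 to 24.4 CPM, as did those of dendritic cells and natural killer cells. In RNA of a whole culture, more cells of a type and more RNA per cell cannot be told apart.

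The members varied in different ways across the libraries labelled Alox15-/-. Relative to the mean of the group, Alox5 was at 0.829, 1.74, 0.874 and 0.560, Alox5ap at 0.805, 1.68, 0.927 and 0.592 and Ltc4s at 0.836, 1.64, 1.15 and 0.374. Ptgs1 was at 0.461, 2.33, 0.842 and 0.366. On the same scale the mast cell and basophil sum was at 0.991, 1.60, 0.793 and 0.616, the eosinophil sum at 0.864, 1.48, 1.25 and 0.409, and the monocyte and macrophage sum at 0.609, 1.78, 1.07 and 0.546. These 4 members and 3 sums had their highest value in replicate 2 and their lowest in replicate 4. So did the neutrophil sum and the sums of natural killer cell markers (38.3 and 10.4 CPM) and dendritic cell markers (6.75 and 3.29 CPM), the latter 2 overlapping between the groups, so this order of the libraries is not particular to any of these cells. The part of these cells in the difference of the members was not tested. Alox15, at 1.05, 1.03, 0.949 and 0.972, was close to its group mean in replicate 4, where the sums were lowest. Hpgds was lowest in replicate 1, at 0.772, and Lta4h in replicate 3, at 0.784. With 4 libraries these orders are a description of each library, with no test.

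**Figure D4:**
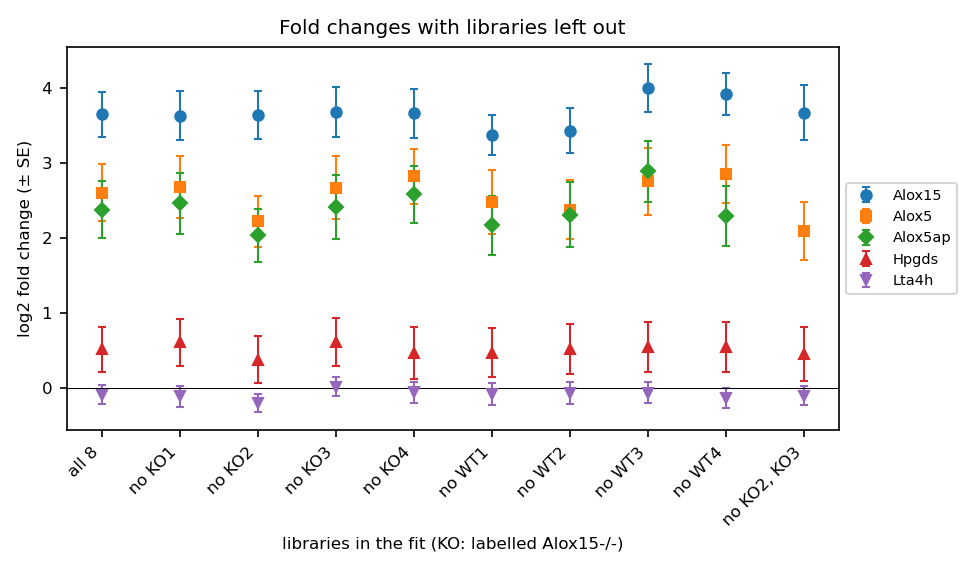
Log2 fold change with its standard error (y axis) of the 5 tested members with all 8 libraries, with each library left out in turn, and without KO2 and KO3 together (x axis; KO, labelled Alox15-/-). With each library left out in turn, Alox15 stays between 3.38 and 4.00, Alox5 between 2.22 and 2.85 and Alox5ap between 2.04 and 2.89, and Alox5ap has no point without KO2 and KO3 because it then falls under the filter.

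The 3 called members remained past the threshold with each library left out in turn. The highest adjusted p was 0.000103 for Alox15, 0.0106 for Alox5 and 0.0177 for Alox5ap by the edgeR quasi-likelihood test. Replicates 2 and 3 of the libraries labelled Alox15-/-, which had the highest sums of neutrophil and erythroid markers, were left out together after the data were seen. Alox15 then had a log2 fold change of 3.67 and Alox5 of 2.10 (edgeR adjusted p = 0.028). The kept replicates 1 and 4 still had mast cell and basophil sums of 233.4 and 145.1 CPM, against at most 84.1 CPM in the WT libraries. Their erythroid sums were 1090 and 903.2 CPM against at most 122.1 CPM. This setting thus does not remove the markers of other cells, and their part was not tested. Alox5ap was under the filter of 2 CPM in 4 libraries without these 2 replicates.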

How the data were processed

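The values are raw counts that the authors deposited for each gene symbol and library, from MACE-seq on an Illumina NextSeq500; the labels name a small RNA kit of the same company in place of the MACE kit, and the submitters' processing notes name Bowtie, edgeR and GRCm38 with no role or version. The counting tool, use of strand and removal of duplicates are not given in the sources used here. Genes reaching 2 CPM in 4 or more libraries (12700 genes) were tested with edgeR 4.0.16 in R 4.3.3 (TMM, glmQLFit and glmQLFTest, group as the only term) with Benjamini-Hochberg adjustment and a threshold of 0.05; the biological coefficient of variation was 14.5%. Members under the filter were described by reads, exact 95% binomial intervals of the ratio and two-sided exact permutation tests of mean log2(CPM + 0.5) in scipy 1.17.1, computed for each member and not adjusted. Positions came from GENCODE M21, promoters from RefSeq (8 of 10 members matched) and matches of transcript ends from blastn 2.17.0. The steps were tested on simulated data. Alternatives used limma-voom (limma 3.58.1), DESeq2 1.42.0, other scalings and filters, the replicate number as a block and left-out libraries. The text names all members, each wider gene past the threshold with the extremes of each list, and the 5 genes most like each called member by Pearson's r; Cxcl16, Cyp4f18 and the single marker genes were named after their values were seen. The members and lists were chosen with earlier results of these data known.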

Additional observations from a re-analysis of the deposited data

Results flagged for a closer look

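Among 42 groups of 4 libraries examined for a library far from the others, 3 were flagged, where chance flags about 1 in 20. Ptgs1 was at 0.626 CPM in WT replicate 4, above the other WT libraries. Ptgs2 was at 2.92 CPM in the same library, above the other WT libraries. The sum of dendritic cell markers was 2.91 CPM in WT replicate 3, below the other WT libraries.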

How the results depend on the processing

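The count of members past the threshold (3) was 5 without a filter on low counts, where Ptgs1 and Ltc4s were added, and 1 when at least 10 counts were asked in every library, which leaves fewer genes tested; it was 3 to 3 with each library left out in turn. The count over the wider list (1) was 3 without the filter (2 higher, 1 lower), 0 without replicates 2 and 3 of the libraries labelled Alox15-/-, an alternative added after the data were seen, and 0 to 1 with each library left out in turn. The count over all genes (158) was 388, 100 and 60 under those 3 settings, the last with fewer samples, and 86 to 172 with each library left out in turn. Over all alternatives that could be fitted, Alox15 kept its call in 19 of 19, Alox5 in 18 of 18 and Alox5ap in 17 of 17, while Hpgds stayed between 0.38 and 0.62 with no call. With each library left out in turn, Lta4h ranged from -0.20 to 0.025 and Ptgs2, fitted without the filter, from -1.45 to 1.45: Lta4h turned to 0.025 without replicate 3 of the libraries labelled Alox15-/-, and Ptgs2 to 0.053 without replicate 4 of that group and to 1.45 without WT replicate 4; the cause was not tested. The deviations of same-numbered libraries from their group means had correlations of 0.0691, 0.165, -0.178 and -0.0177. Such values cannot settle whether the libraries were prepared in pairs, which is not known here. With the replicate number as a block, 3 members, 1 wider gene and 146 genes in all were called. Depth limits Alox12, Ltc4s, Ptgs1, Ptgs2 and Hpgd, which have between 0 and 27 reads per library.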
